A study of Homo sapiens with 10 samples.

Results

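MV4-11 is an established AML cell line that bears a FLT3-ITD mutation. The genes described here are 10 known outputs or feedback inhibitors of ERK signaling, and ERK activity itself was not measured in these libraries. They are DUSP4, DUSP5, DUSP6, SPRY2, SPRY4, SPRED1, ETV5, EGR1, FOS and PHLDA1, chosen by name as known outputs and feedback inhibitors of the pathway, 10 of the 19590 genes in the deposited RNA-Seq table. RNA-Seq was done on 4 control replicates, cells infected with the control vector, and on 4 replicates of IRF8 KO cells, in which the transcription factor IRF8 had been targeted by lentiviral CRISPR/Cas9 and puromycin selection. The knockout cells were clones grown by limiting dilution from MV4-11, made with either of 2 guides, and the sources used here do not say which clone each library came from. The control is described as infected cells and not as a clone, so that clonal descent and loss of IRF8 cannot be told apart in any difference below, and replicates may be technical, in which case p-values measure only the spread between these libraries. The values are normalized read counts, reads per gene divided by 1 size factor per library, and 39560072 to 65519047 reads per library fell on genes. IRF8 mRNA itself had 29408 ± 12787 normalized counts in the control and 7375 ± 4339 in the IRF8 KO libraries (SD, n = 4 each). Its limma adjusted p of 0.022 rose to at most 0.058 without control replicate 1, control replicate 3 or knockout replicate 1. For the protein, the paper reports none in the knockout cells by Western blot and no IRF8 at its target genes by ChIP-qPCR. All 10 myeloid marker genes looked at were measured, 5 of them were higher in the IRF8 KO libraries by limma (MPO, CD4, ITGAM, CD68 and FCGR1A), and their summed level ranged from 29698 to 40863 in the control and from 80362 to 323934 in the knockout. The upper end came from LYZ in knockout replicate 1 (248604 normalized counts, against 13767 to 39385 in the other 3), without which library the knockout sums were 80362 to 104378, and LYZ itself was not called (limma adjusted p = 0.060). The summed level of 6 T and B lymphoid markers was 179 to 493 in the control and 178 to 928 in the knockout, that of 4 erythroid markers 0.804 to 6.59 and 3.20 to 6.77, that of 4 fibroblast markers 11.2 to 29.0 and 7.46 to 20.3, and that of 5 epithelial markers 1473 to 3728 and 60.7 to 242. The epithelial sum came from KRT8 and KRT18, both lower in the knockout by limma, whereas MS4A1, HBB, KRT19 and COL3A1 were at 0 in all 8 libraries. In bulk RNA, fewer cells of a kind and less RNA per cell cannot be told apart, and the part of these markers in the results below was not tested.

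ERK is the last kinase of the RAS-RAF-MEK-ERK cascade, which receptor tyrosine kinases such as FLT3 switch on. Active ERK induces its own inhibitors, so that the mRNA of dual-specificity phosphatases (DUSP), which remove the activating phosphates from ERK, and of Sprouty and Spred proteins, which act on RAS and RAF, is widely read as a measure of pathway output. Other outputs are transcription factors, among them immediate early genes such as EGR1 and FOS, which are transcribed within minutes of a stimulus, and ETS factors of the PEA3 group such as ETV5.

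The start sites of 4 of these genes are shown because they include the pair of immediate early genes, whose induction through serum response elements is well known, and SPRY4 and DUSP6, which moved in opposite directions in the knockout. Each window runs from 250 bases before to 50 bases after the RefSeq start on the strand of the gene (assembly GRCh38.p14). Capitals mark matches on either strand to any of 7 motifs, the CArG box of serum response factor, the CRE core TGACGT, the AP-1 site TGANTCA, the EGR site GCGNGGGCG, the ETS site CCGGAAG, the ETS-IRF composite GGAANNGAAA and the IRF pair GAAANNGAAA. The last of these motifs share the end NNGAAA and can overlap.
EGR1, chr5:138465229-138465528, plus strand: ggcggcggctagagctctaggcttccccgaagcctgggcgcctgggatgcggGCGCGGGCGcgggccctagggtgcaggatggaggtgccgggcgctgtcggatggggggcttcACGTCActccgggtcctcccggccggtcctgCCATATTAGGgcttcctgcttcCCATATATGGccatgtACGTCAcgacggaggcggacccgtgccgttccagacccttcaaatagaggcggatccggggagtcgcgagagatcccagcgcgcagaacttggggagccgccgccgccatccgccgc
FOS, chr14:75278578-75278877, plus strand: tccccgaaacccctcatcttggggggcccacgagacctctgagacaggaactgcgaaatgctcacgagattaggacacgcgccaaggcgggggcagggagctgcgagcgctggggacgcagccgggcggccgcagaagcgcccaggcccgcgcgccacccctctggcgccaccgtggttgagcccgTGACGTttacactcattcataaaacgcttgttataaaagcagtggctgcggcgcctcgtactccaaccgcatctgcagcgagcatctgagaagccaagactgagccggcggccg
SPRY4, chr5:142324198-142324497, minus strand: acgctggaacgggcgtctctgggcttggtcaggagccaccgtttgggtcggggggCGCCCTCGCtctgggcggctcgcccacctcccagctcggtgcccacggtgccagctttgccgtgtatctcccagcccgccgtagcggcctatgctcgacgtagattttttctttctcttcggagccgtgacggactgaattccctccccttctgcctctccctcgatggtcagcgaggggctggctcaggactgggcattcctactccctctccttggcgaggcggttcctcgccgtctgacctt
DUSP6, chr12:89352452-89352751, minus strand: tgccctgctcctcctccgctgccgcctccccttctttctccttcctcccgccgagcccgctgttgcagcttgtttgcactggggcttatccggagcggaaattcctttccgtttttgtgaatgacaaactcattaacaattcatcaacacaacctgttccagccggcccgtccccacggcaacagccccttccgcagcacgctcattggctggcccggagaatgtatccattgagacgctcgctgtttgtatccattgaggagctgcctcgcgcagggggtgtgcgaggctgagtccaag
EGR1 held 2 CArG boxes, CCATATTAGG from 105 to 96 bases and CCATATATGG from 83 to 74 bases before the start, where 1.29% of all 35116 windows hold such a box. It also held 2 CRE cores, and FOS held 1 from 64 to 59 bases before the start, against 7.98% of all windows with at least 1. An EGR site was present in EGR1, SPRY4 and SPRY2, and in 9.43% of all windows. None of the 9 windows of the 7 matched genes held the AP-1 site, the ETS site, the ETS-IRF composite or the IRF pair, which 7.71%, 10.3%, 2.82% and 3.57% of all windows hold. These matches describe letters in short windows and not bound sites. FOS held no CArG box, but sites more than 250 bases before a start were not searched. DUSP4, DUSP5 and ETV5 had no window in the table.

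In the IRF8 KO libraries the ERK output genes did not move together. DUSP6 rose 4.03-fold while DUSP4, SPRY4 and PHLDA1 fell to 14.5%, 10.6% and 48.5% of the control mean, and DUSP5, SPRY2, ETV5, EGR1 and FOS did not pass the test when the libraries were compared as 4 against 4. These 9 genes reached the required average of 10 normalized counts, and SPRED1 did not. Thus 4 of the 10 genes were called at a limma adjusted p below 0.05, 1 higher and 3 lower, where 18.2% of all 13110 tested genes were called (8.65% higher and 9.56% lower). By limma the same 4 genes met the pair of thresholds used in the study, p below 0.01, taken here without adjustment, and a difference of 2-fold or more. These were met by 10.9% of the tested genes (4.78% higher and 6.12% lower). The study applied its thresholds to DESeq2 and not to limma, so the shares are not its own. On recovered reads edgeR and DESeq2 each called 4 of these genes as well, against 18.1% and 25.9% of all tested genes. In the same 4 genes the control and IRF8 KO values did not overlap, which held for 25.3% of all tested genes. Over the 9 genes the median log2 fold change was -0.53, and over all tested genes -0.00094. Control and IRF8 KO libraries shared a split of replicates 1 and 3 against 2 and 4. A pairing by single replicate number was not established. With the replicate number as a block in limma, 6 of the genes were called, 1 higher and 5 lower, ETV5 and FOS being added. Of all tested genes 28.7% were called with this block (14.2% higher and 14.6% lower). With a covariate for the split in place of the block, ETV5 was added and FOS was not.

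**Figure D1:**
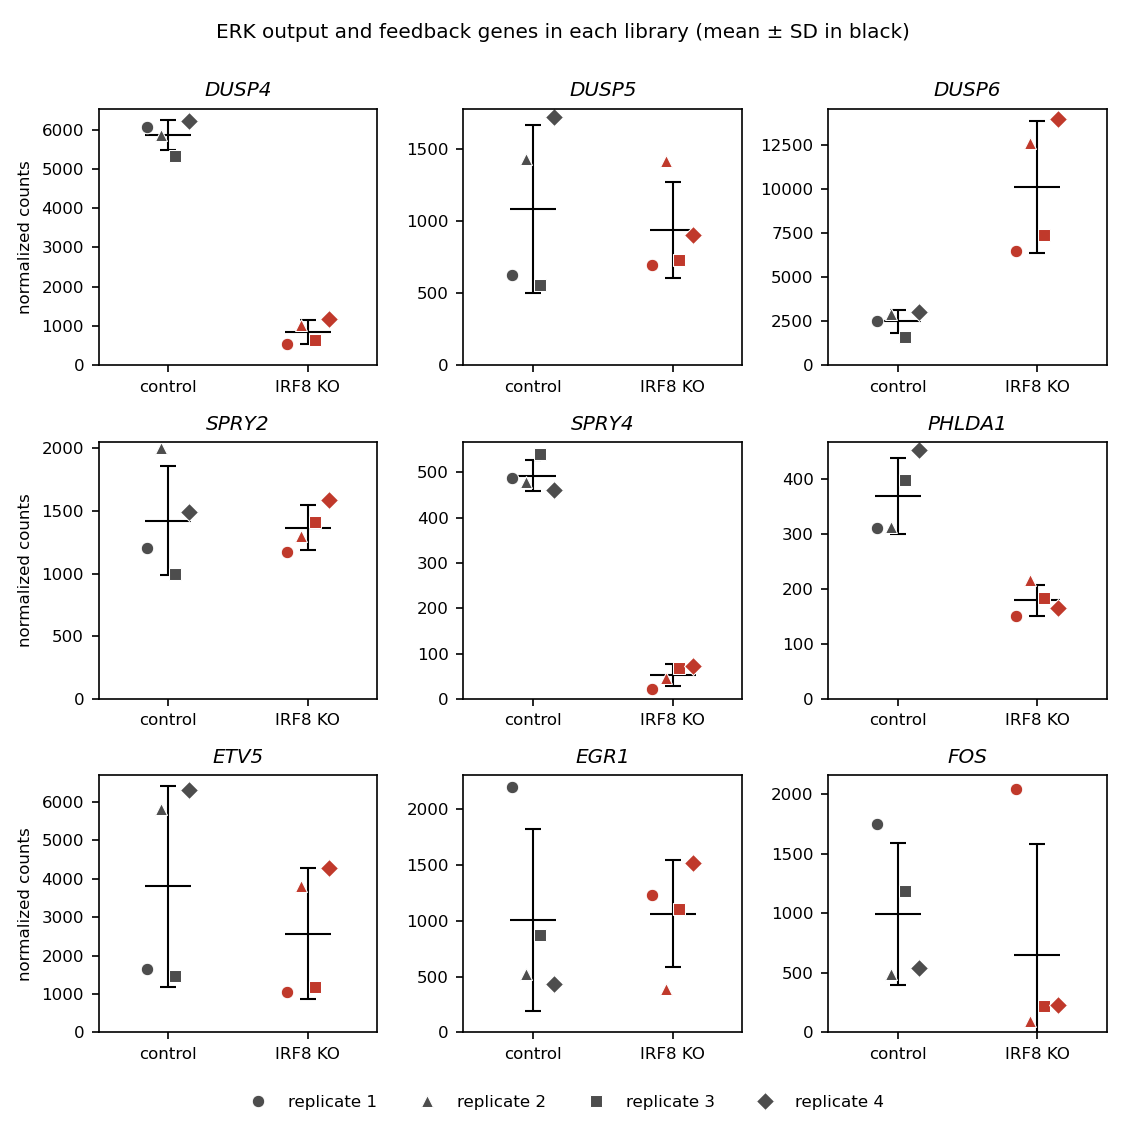
Normalized counts of the 9 tested genes (vertical axes, each from 0) in the control and IRF8 KO libraries, 1 point per library with its shape giving the replicate number, and the mean ± SD of 4 libraries in black (the lower bar of FOS in the knockout is cut at 0). DUSP6 is higher in all 4 IRF8 KO libraries and DUSP4, SPRY4 and PHLDA1 are lower, while ETV5 and DUSP5 are high in replicates 2 and 4 of the control.

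DUSP4 encodes a nuclear phosphatase that acts on ERK and on the stress-activated MAP kinases. It had 6073, 5848, 5335 and 6206 normalized counts in control replicates 1 to 4 and 537, 1039, 642 and 1191 in IRF8 KO replicates 1 to 4. The control values lay within 1.16-fold of each other, and the lowest of them was 4.48-fold above the highest knockout value. In log2 terms DUSP4 fell by 2.86 with a standard error of 0.25 (adjusted p = 1.9e-04 by limma). An exact two-sided permutation test gave p = 0.029, the smallest that 4 against 4 allows. DUSP4 lies on chromosome 8. Its knockout values differed among themselves more than the control values did, with replicates 2 and 4 1.89-fold above replicates 1 and 3, against 1.06-fold in the control.

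DUSP6 encodes a cytoplasmic phosphatase that is selective for ERK and is a classical feedback gene of the pathway. It went the other way from DUSP4, with 2524, 2890, 1586 and 3037 normalized counts in the control and 6462, 12618, 7413 and 13944 in the IRF8 KO replicates. Every knockout library was above every control library, the lowest knockout value being 2.13-fold above the highest control value. On the log2 scale DUSP6 rose by 1.98 with a standard error of 0.30 (adjusted p = 0.0027 by limma, exact permutation test p = 0.029). As for DUSP4, replicates 2 and 4 of the knockout were above replicates 1 and 3, here 1.91-fold, and 1.44-fold in the control. The read count of DUSP6 divided by that of DUSP4 in the same library, a ratio without correction for transcript length, was between 0.30 and 0.49 in the 4 control libraries and between 11.5 and 12.1 in the 4 IRF8 KO libraries. This pair was chosen after the values were seen, so no test is given.

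DUSP5, whose product is an ERK-selective phosphatase of the nucleus, had 627, 1429, 557 and 1716 normalized counts in the control and 693, 1414, 730 and 902 in the IRF8 KO libraries. The groups overlapped almost fully, and control replicates 2 and 4 were 2.65-fold above replicates 1 and 3. The log2 fold change of -0.10 had a 95% interval from -1.02 to 0.81 (limma adjusted p = 0.90), so changes within that range, in either direction, remained possible. Within replicate numbers it was higher in the knockout in 2 of 4 pairs.

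Sprouty proteins are induced by receptor tyrosine kinase signaling and inhibit the step from the receptor to RAS and RAF. SPRY4 had 487, 480, 541 and 462 normalized counts in the control and 21.3, 45.9, 69.1 and 72.8 in the IRF8 KO libraries. The lowest control value was 6.35-fold above the highest knockout value, with recovered reads of 20, 48, 51 and 74 behind the knockout values. In the largest fall among the 10 genes, SPRY4 fell by 3.35 on the log2 scale with a standard error of 0.37 (adjusted p = 5.0e-04 by limma, exact permutation test p = 0.029). SPRY2, the other Sprouty gene among them, had 1201, 2000, 995 and 1494 normalized counts in the control and 1170, 1298, 1408 and 1591 in the IRF8 KO libraries. The knockout values lay inside the control range, with a log2 fold change of -0.02 and a 95% interval from -0.51 to 0.47 (limma adjusted p = 0.97). This interval does not reach the fall of SPRY4. SPRED1, whose product brings the RAS inhibitor neurofibromin to the membrane, had a total of 2 reads over all 8 libraries, 1 read in each of 2 control libraries and 0 in the knockout, so no comparison was made. SPRED2, its paralog, was measured at 2249 ± 387 normalized counts in the control and 2601 ± 470 in the IRF8 KO libraries (SD, n = 4 each, limma adjusted p = 0.47).

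PHLDA1 encodes a small protein with a pleckstrin homology-like domain, and its transcript is a common member of ERK signatures. It had 311, 313, 398 and 452 normalized counts in the control and 150, 216, 184 and 165 in the IRF8 KO libraries. The groups did not overlap, although the lowest control value was only 1.44-fold above the highest knockout value. PHLDA1 fell by 1.03 on the log2 scale, just past a 2-fold difference, with a standard error of 0.20 (adjusted p = 0.0080 by limma, exact permutation test p = 0.029). It was under 2-fold without control replicate 3, control replicate 4 or knockout replicate 1 and with quantile normalization, and at the limit of 2-fold without knockout replicate 4. Its knockout values lay within 1.44-fold of each other and its control values within 1.45-fold.

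**Figure D2:**
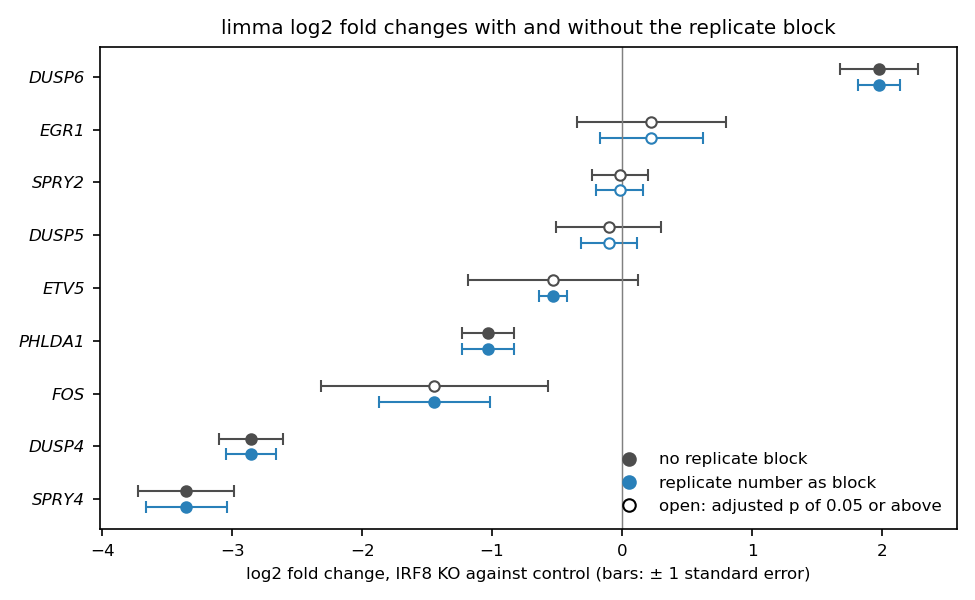
Log2 fold change of each tested gene, IRF8 KO against control, from limma (horizontal axis, points) with bars of 1 standard error, without (grey) and with (blue) the replicate number as a block. Filled points have an adjusted p below 0.05, and ETV5 and FOS, at -0.53 and -1.44, are filled only with the block.

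The 3 transcription factor genes varied widely between libraries of the same group, and for ETV5 this spread followed the replicate number. ETV5, an ETS factor of the PEA3 group, had 1638, 5805, 1457 and 6295 normalized counts in the control and 1043, 3804, 1173 and 4269 in the IRF8 KO libraries. Replicates 2 and 4 were 3.91-fold above replicates 1 and 3 in the control and 3.64-fold above them in the knockout, so the split by replicate number was larger than the difference between groups. Within each replicate number ETV5 was lower in the knockout, by log2 differences of -0.65, -0.61, -0.31 and -0.56 in replicates 1 to 4. For this difference of -0.53 in log2 the standard error was 0.65 without the block (adjusted p = 0.64 by limma) and 0.11 with it (adjusted p = 0.0096 by limma). What a shared replicate number marks is not stated in the sources used here.

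EGR1, a zinc finger factor of the immediate early response, had 2204, 527, 872 and 431 normalized counts in the control and 1231, 394, 1105 and 1524 in the IRF8 KO libraries. The control spanned 5.11-fold with replicate 1 highest, and the knockout 3.87-fold with replicate 2 lowest. The log2 fold change of 0.23 had a 95% interval from -1.07 to 1.52 (limma adjusted p = 0.84, and 0.71 with the block), and EGR1 was higher in the knockout in 2 of 4 pairs. FOS, which encodes a subunit of the AP-1 factor, had 1746, 490, 1189 and 539 normalized counts in the control and 2042, 93.7, 222 and 232 in the IRF8 KO libraries. In the control, FOS and EGR1 were both higher in replicates 1 and 3 than in replicates 2 and 4, the opposite of ETV5 and DUSP5. Knockout replicate 1 held the highest FOS value of all 8 libraries, while the other 3 knockout libraries were below every control library. The log2 fold change of FOS was -1.44 (standard error 0.87, limma adjusted p = 0.30), with the block the limma adjusted p was 0.043 but with a covariate for replicates 1 and 3 against 2 and 4 it was 0.10, and without knockout replicate 1 the log2 fold change was -2.34 (limma adjusted p = 0.024). On recovered reads edgeR gave a log2 fold change of -0.62 for FOS and DESeq2 -0.61 (adjusted p of 0.70 and 0.74). Without knockout replicate 2 the limma value for FOS was -0.86, so that its size depended on single knockout libraries.

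**Figure D3:**
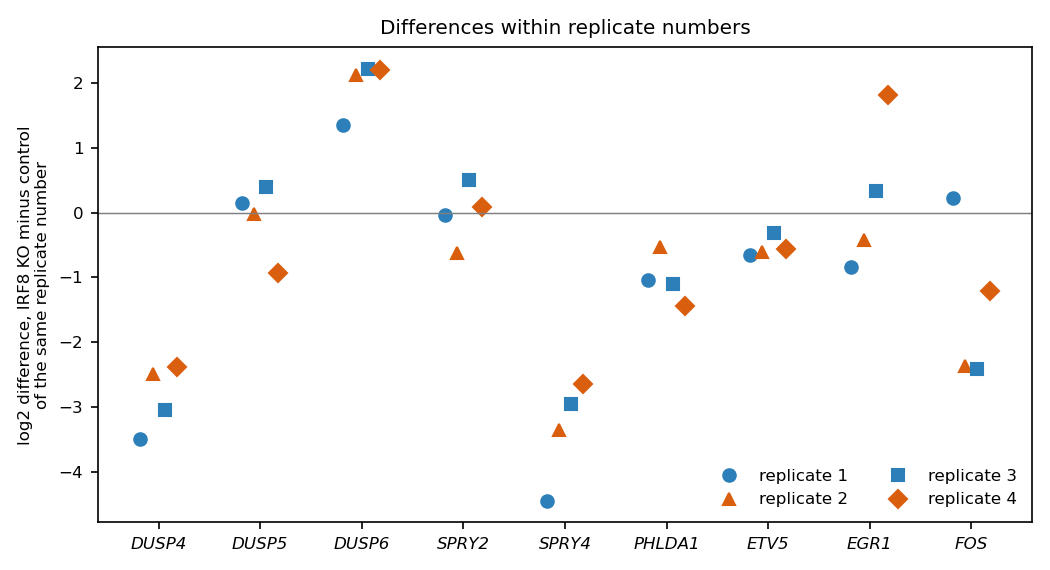
Log2 difference of each tested gene between the IRF8 KO and the control library of the same replicate number (vertical axis, 1 point per replicate number, 1 and 3 in blue, 2 and 4 in orange). DUSP4, SPRY4, PHLDA1 and ETV5 are below 0 in all 4 pairs and DUSP6 is above 0 in all 4, while DUSP5, SPRY2 and EGR1 lie on both sides and FOS is above 0 in replicate 1 only.

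The wider set of ERK feedback and output genes, a list of 24 genes, was moved as unevenly. This list was written from general knowledge with earlier results of these data known, so its share of called genes is descriptive only. By limma 7 of its 20 tested genes were lower, 1 was higher and 12 were not called (40.0% called, against 18.2% of all tested genes), with a median log2 fold change of -0.41. With the block, 9 were lower and 1 higher, where 14.6% of all tested genes were lower and 14.2% higher. IER3, an early response gene whose product is a substrate of ERK, fell by 3.19 on the log2 scale, its mean going to 291 ± 109 from 2546 ± 442 normalized counts (SD, n = 4 each, limma adjusted p = 2.4e-04). The PEA3 factors ETV4 and ETV1 fell too. ETV4 went from 1459 ± 279 to 299 ± 141 normalized counts (SD, n = 4 each, limma adjusted p = 0.0044). ETV1, at a low level, went from 51.6 ± 22.2 to 11.6 ± 4.99 (SD, n = 4 each, limma adjusted p = 0.011). ETV5, also lower, was called only with the block or the covariate, and these factors were not tested against each other. DUSP7, a cytoplasmic ERK phosphatase closely related to DUSP6, fell to 2678 ± 993 from 8301 ± 2859 normalized counts (SD, n = 4 each, limma adjusted p = 0.0076), opposite in direction to DUSP6. PLAUR, the urokinase receptor, fell to 37.0% of the control mean (limma adjusted p = 0.0010). TRIB1, a pseudokinase that promotes degradation of C/EBPα, was the gene that rose, to 1059 ± 250 from 515 ± 93.5 normalized counts (SD, n = 4 each, limma adjusted p = 0.0086). FOSL1 and CIC, named after their values were seen, were the other lower genes, with log2 fold changes of -0.70 and -0.62, and the call of CIC was lost without control replicate 2 or without any of knockout replicates 1, 3 and 4 (limma adjusted p of at most 0.060). CCND1, which encodes Cyclin D1, had a log2 fold change of -1.95 and a limma adjusted p of 0.052, which was 0.016 with the block and 0.026 without knockout replicate 2. MYC, with 25927 ± 2140 and 28936 ± 2854 normalized counts (SD, n = 4 each), had a log2 fold change of 0.16 and a 95% interval from -0.10 to 0.42. SPRY1 had a log2 fold change of 0.86 (limma adjusted p = 0.48), its control values splitting 6.48-fold between replicates 2 and 4 and replicates 1 and 3. EPHA4 was at 0 in every library and EPHA2 had at most 1.07 normalized counts in any, so these receptors could not be compared.

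**Figure D4:**
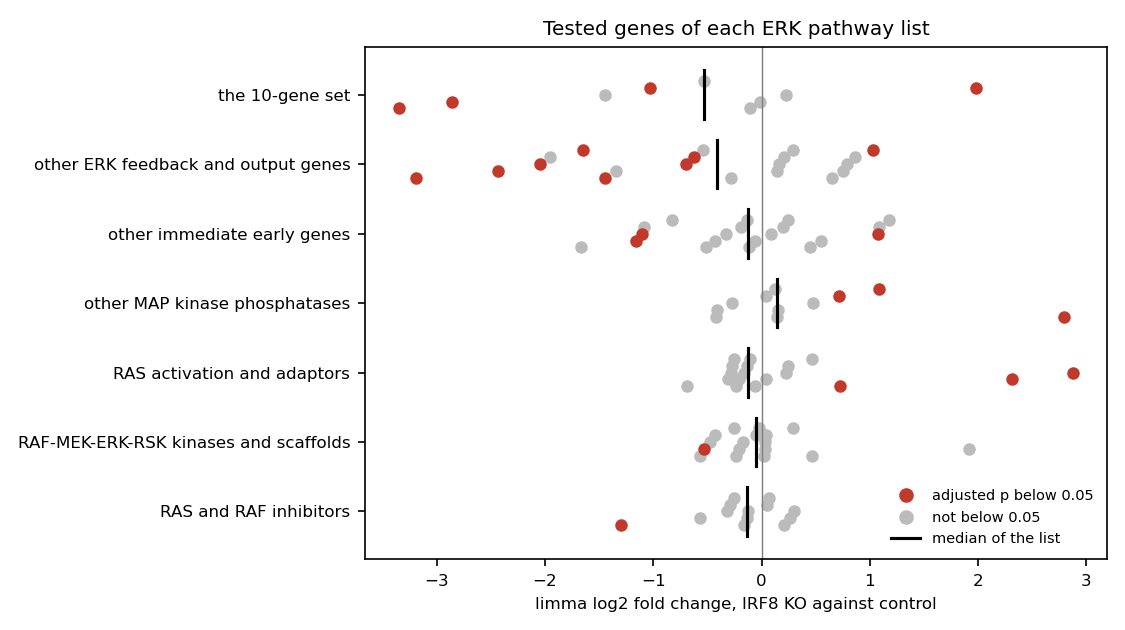
Log2 fold change of every tested gene, IRF8 KO against control (horizontal axis, limma without a block), in the 10-gene set and in 6 other lists of the pathway, with genes at an adjusted p below 0.05 in red and the median of each list as a black line. SPRY4, IER3 and DUSP4 lie farthest to the left and RRAS2 and DUSP16 farthest to the right, and the kinases of the cascade hold 1 called gene.

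Upstream of these outputs lies the core of the cascade. Among 18 listed RAF, MEK, ERK and RSK kinases, scaffolds and ternary complex factors, 17 had a row and 1 was called (5.88%, against 18.2% of all tested genes), RPS6KA3, which encodes the ERK-activated kinase RSK2 (log2 fold change -0.53, limma adjusted p = 0.034). That call was lost without any single library other than knockout replicate 4, with limma adjusted p-values of at most 0.092. MAPK3, which encodes an ERK kinase, had a log2 fold change of 0.03 (95% interval from -0.21 to 0.28). With the block 3 of the 17 were called, against 28.7% of all tested genes, and with DESeq2 4, against 25.9%. Both include KSR1, named after its values were seen, a scaffold that holds RAF, MEK and ERK together. KSR1 had 577, 2323, 519 and 2432 normalized counts in the control and 3119, 7783, 2331 and 6018 in the IRF8 KO libraries, higher in the knockout in each replicate number (log2 fold change 1.91, limma adjusted p = 0.063 without and 6.0e-04 with the block). Without the block KSR1 was called when control replicate 2 or control replicate 4 was left out.

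At the level of RAS, FLT3 and NRAS had log2 fold changes of -0.21 (95% interval from -0.62 to 0.20) and -0.06 (95% interval from -0.35 to 0.22). Of 20 listed genes of RAS activation, 18 were tested and 3 were called, all higher (16.7%, near the 18.2% of all tested genes). RASGRP3, an exchange factor that loads RAS with GTP, rose to 509 ± 149 from 109 ± 53.3 normalized counts (SD, n = 4 each, limma adjusted p = 0.0039). RRAS2, a RAS-related GTPase, rose from between 1.07 and 4.71 to between 22.9 and 36.4 normalized counts (limma adjusted p = 0.0022), with 14 reads in all behind the control values, so that it passed the filter on low values only through the knockout libraries. GAB3, a docking protein of growth factor receptors, rose from 706 ± 11.0 to 1168 ± 57.2 (SD, n = 4 each, limma adjusted p = 0.0023). Among 13 tested RAS and RAF inhibitors of 14 listed, RASAL3, a RAS GTPase-activating protein of blood cells, was the only one called (7.69%, against 18.2% of all tested genes) and fell to 40.9% of the control mean (log2 fold change -1.30, limma adjusted p = 0.0041).

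The MAP kinase phosphatases outside the ERK-selective group were called in 3 of 11 tested genes, all higher, and with the block also in 3 (27.3%, against 18.2% of all tested genes without and 28.7% with the block). DUSP16, which acts on JNK and p38, rose 6.29-fold, from 94.1, 321, 80.5 and 202 normalized counts in the control to 1768, 788, 855 and 979 in the IRF8 KO libraries (2.79 in log2 with a standard error of 0.46, adjusted p = 0.0040 by limma). DUSP19 and DUSP22, which act in the JNK pathway, rose by log2 fold changes of 1.09 and 0.72 (limma adjusted p = 0.0080 and 0.011). Together with DUSP6, 4 phosphatase genes of the MAP kinases were thus higher, and DUSP4 and DUSP7 lower.

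Among 20 tested immediate early genes other than EGR1 and FOS, 3 were called, 1 higher and 2 lower (15.0%, against 18.2% of all tested genes). ZFP36, whose product destabilizes AU-rich mRNAs, and BTG2, an antiproliferative gene, fell to 44.8% and 47.9% of the control mean (limma adjusted p = 0.0021 and 0.014). JUN, the partner of FOS in AP-1, had 282, 429, 282 and 251 normalized counts in the control and 703, 437, 1101 and 499 in the IRF8 KO libraries (log2 fold change 1.07, limma adjusted p = 0.042). That call was lost without any single library other than control replicate 2 and knockout replicate 2, with limma adjusted p-values of at most 0.10. DUSP1 and JUNB, other immediate early genes, had limma adjusted p-values of 0.29 and 0.19. With the block 7 of the 20 were called, 2 higher and 5 lower, against 28.7% of all tested genes (14.2% higher and 14.6% lower).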

How the data were processed

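RNA-Seq libraries of MV4-11 control (n = 4) and IRF8 KO (n = 4) cells were used. According to the methods of the study, the authors prepared libraries with a stranded mRNA kit, aligned reads with RNA-Star to the GENCODE v32 human transcriptome, counted them per gene with featureCounts and divided the counts by DESeq2 size factors. The deposited signal per gene and library is this normalized count. The authors' table of their own comparison (fold changes and p-values) and the ChIP-Seq samples were not used here. The submitters' processing notes name hg19 and hg38 without a role, and no coordinates were taken from the RNA-Seq files. Columns named WT1 to WT4 were taken as control replicates 1 to 4, and 0 columns were left out. After division by what 1 read is worth in its library, 100% of values were whole within 0.01, with a median of 52233344 reads per library, so that genes near 10 normalized counts rest on few reads.

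The comparison was computed with limma 3.58.1 (R 4.3.3) on log2(normalized count + 1) of the 13110 genes that averaged 10 or more, with a trended robust prior and Benjamini-Hochberg adjustment. This scale understates changes of low genes. Exact two-sided permutation tests used the same log2 values. edgeR 4.0.16 and DESeq2 1.42.0 on recovered reads, the pseudocount, filter, scaling, prior, a replicate block, a covariate for replicates 1 and 3 against 2 and 4, and leaving out each library were alternatives. The fits were tested on simulated data. Across genes, control and IRF8 KO libraries of the same number deviated together from their groups (correlation 0.37, 0.48, 0.45 and 0.50). Control and knockout libraries numbered 1 and 3 did so across numbers as well (0.41 and 0.47), as did those numbered 2 and 4 (0.41 and 0.40). These values show the split of replicates 1 and 3 against 2 and 4. They do not establish a pairing by single replicate number. The split comes from the data and not from the labels. None of the 118 listed genes with a row lies on chromosome 20, 21 or Y by RefSeq symbol. RASGRP4 and KSR2 were not analysed here. Levels were not compared between genes, as transcript lengths were not used.

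The 10 genes, the other lists and the motifs were chosen with earlier results of these data known. Named genes are the 10, IRF8, up to 5 higher and 5 lower called genes of each list, and CCND1, MYC, ETV4, EPHA2, EPHA4, SPRY1, SPRED2, DUSP7, FLT3, NRAS, MAPK3, DUSP1, JUN and JUNB. Some genes of the lists are not reported here. Promoter windows came from RefSeq (GRCh38.p14), which matched 7 of the 10 genes by symbol.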

Additional observations from a re-analysis of the deposited data

Results flagged for a closer look

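FOS in IRF8 KO replicate 1 stood far from the other libraries of its group, at 2042 normalized counts against 93.7 to 232 in the other 3. Its gap to the nearest was 0.93 of the whole range, above the critical value of Dixon's test. That test was run on normalized counts and not on the log2 values used for the other tests, so the flag holds for this scale only. It was the only such library among 74 groups of 4 values tested over the named genes with enough counts, where chance gives about 1 in 20.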

How the results depend on the processing

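DUSP4, DUSP6, SPRY4 and PHLDA1 kept direction and call under all 19 alternatives, with log2 fold changes from -3.04 to -2.66, 1.77 to 2.17, -3.56 to -2.98 and -1.13 to -0.88. The number of called genes of the 10 was 4 in all but 3 of the alternatives, 6 with the replicate block (ETV5 and FOS added), 5 with a covariate for replicates 1 and 3 against 2 and 4 (log2 fold change of ETV5 -0.53, limma adjusted p = 0.0030) and 5 without knockout replicate 1. At the thresholds of the study it was 3 with quantile normalization, without control replicate 3 and without control replicate 4, and otherwise 4, though without knockout replicate 1 PHLDA1 was under 2-fold and FOS took its place. Signs of genes that were not called turned when single libraries were left out, with ranges of -0.37 to 0.17 for DUSP5, -0.17 to 0.16 for SPRY2 and -0.079 to 0.70 for EGR1, and the cause was not tested. The log2 fold change of IRF8 ranged from -2.46 to -1.65 with single libraries left out, and its limma adjusted p was 0.058, 0.057 and 0.053 without control replicate 1, control replicate 3 and knockout replicate 1. Called immediate early genes numbered 5 with quantile normalization, 6 with DESeq2, 7 with the replicate block and 8 with the covariate, against 3, and from 2 to 4 with single libraries left out. Called kinases and scaffolds numbered 4 with DESeq2, 3 with the replicate block and 5 with the covariate, against 1, and from 0 to 2 with single libraries left out, the count of 0 coming without control replicate 1, control replicate 3, knockout replicate 1 or knockout replicate 3, with 4 or 5 genes at an unadjusted p below 0.05 in limma and 1 called by edgeR on all libraries. With the covariate 5 other MAP kinase phosphatases and 5 genes of RAS activation were called, against 3 each, and without a filter on low values 2 RAS and RAF inhibitors, against 1, with 14 genes tested in place of 13. Over all 13110 genes 2387 were called by limma, 2370 by edgeR, 3402 by DESeq2 and 3769 with the replicate block. Among the genes of the lists the block ended no call, and besides ETV5 and FOS it added CCND1, EMP1, JUND, IER2, KLF4, MAFF, GAB1, KSR1 and MKNK1. At this depth SPRED1, EPHA2 and EPHA4 could not be compared.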
